A study of Xenopus tropicalis with 8 samples.

Results

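Lipid enzymes and lipid transporters were followed in whole embryos of the western clawed frog, Xenopus tropicalis, after exposure to Disperse Yellow 7 (DY7), a textile dye of the azo class. The exposed group comprised 4 samples treated with 887 ppm of the dye, and the control group comprised 4 samples with no treatment. Both groups are labelled as embryos of stages 12 to 46, no vehicle is named, and the series text describes the samples as 4 exposure groups per condition. How many embryos were pooled in each, and their strain, are not given in the sources used here, so the p-values measure only the spread between these samples. Genes were chosen by symbol alone, through families such as the acyl-CoA synthetases, dehydrogenases and oxidases, the elongases and desaturases, the acyltransferases, the ABCA and ABCD transporters, the oxysterol-binding proteins and the apolipoproteins. Of 36 such genes described here, 25 passed the detection filter, which asked for a probe well above background on every array of DY7, of control, or of both. They stood among 3436 named genes and 20289 probes that passed it and were tested. Each of the 25 genes was read by 1 probe. By their known roles most members act on lipids. Some do not, as is said where each is described: gpatch2, for example, shares only its first letters with an acyltransferase family and encodes an RNA-binding G-patch protein, while abcd4 carries vitamin B12 out of lysosomes.

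A fatty acid must be joined to coenzyme A before it can be used. Synthetases of the ACS families carry out this activation. Shortening of the resulting acyl-CoA begins with a step carried out by dehydrogenases in mitochondria and by oxidases in peroxisomes. The acyl-CoA can also be lengthened by ELOVL enzymes, desaturated by FADS enzymes, or built into phospholipids and triglycerides by acyltransferases. The frog embryo carries its lipid in yolk platelets and droplets and draws on these stores until it begins to feed.

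The signal was log2 of the scanner software's processed intensity, expressed relative to the 75th percentile of the probes on the same array, so that a value of 0 marks a probe at that percentile. Probes well above background made up 64.1% to 73.5% of probes on the DY7 arrays and 51.6% to 75.9% on the control arrays, with the lowest share on control 2. The 75th percentile lay at intensities of 126 to 202 on the DY7 arrays and 162 to 327 on the control arrays. Between arrays, correlations over the tested probes ran from 0.98 to 0.993 within DY7, from 0.972 to 0.995 within the controls, and from 0.955 to 0.987 between the groups. The number of arrays limits the precision of all values below.

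Higher levels in DY7 embryos were called for the elongase elovl3 (1.59-fold) and the phospholipid acyltransferase lpcat3 (1.36-fold). No member was called lower. Thus 2 of 25 genes rose and 0 fell at a Benjamini-Hochberg adjusted p under 0.05 in limma, which is 8% of the members, against 14.1% of all tested probes (9.06% higher and 5.07% lower). At an unadjusted p under 0.05, 5 members were higher and 2 lower, or 28% of the members against 33.6% of all tested probes (20.7% higher and 12.9% lower). Among named genes, each read by its brightest probe, 14.3% were called (9.11% higher and 5.24% lower). The groups did not overlap in 3 members, with DY7 above in 2 and below in 1, or 12% of the members against 21.6% of all tested probes (12.7% above and 8.86% below). Counting both directions, the share of members was below that of all tested probes by each of these criteria, which rest on the same values. With only 25 members the difference is a description and was not tested. The median log2 fold change of the members was 0.05, and that of all tested probes was 0.06. In total 13 members had a positive and 12 a negative log2 fold change, and the range was -0.43 to 0.72. Because whole embryos were measured, fewer cells of a type and less RNA per cell cannot be told apart.

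**Figure D1:**
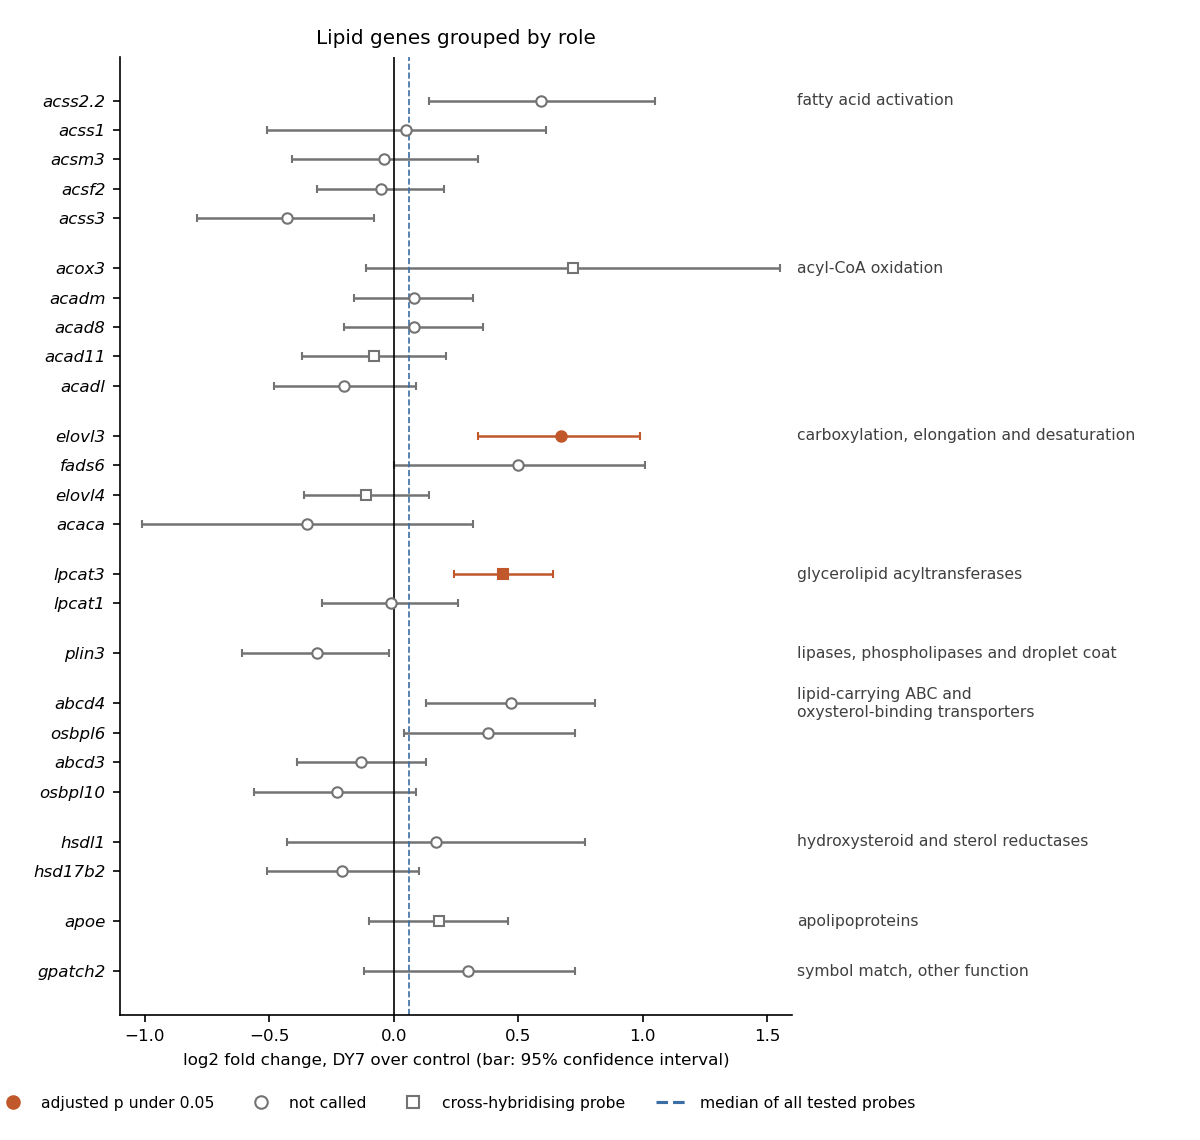
Log2 fold change of each of the 25 genes (horizontal axis, DY7 over control) with its 95% confidence interval from limma, n = 4 arrays per group, grouped by role. The 2 filled points, elovl3 and lpcat3, are the calls; the widest interval belongs to acox3, from -0.11 to 1.55.

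The larger rise was that of elovl3. This enzyme lengthens saturated and monounsaturated fatty acids, and in mice it is best known from skin glands and brown fat. Its log2 signal was 0.87, 1.28, 1.23 and 0.71 on DY7 arrays 1 to 4, against 0.29, 0.52, 0.31 and 0.31 on control arrays 1 to 4. All DY7 values lay above all control values, with DY7 2 and DY7 3 highest and DY7 4 nearest to the controls. The log2 fold change was 0.67 ± 0.14 (SE, 4 DY7 and 4 control arrays, adjusted p = 0.0199 in limma), and it was 0.67 on slide 1 and 0.66 on slide 2.

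The other call was lpcat3, an enzyme of the endoplasmic reticulum that places polyunsaturated acyl chains into phosphatidylcholine and other phospholipids. Its log2 signal was 1.74, 1.88, 1.75 and 1.88 on the DY7 arrays, against 1.44, 1.36, 1.30 and 1.38 on the control arrays. Again every DY7 array lay above every control array. Its log2 fold change was 0.44 ± 0.09 (SE, limma adjusted p = 0.0160), with 0.41 on slide 1 and 0.48 on slide 2. The name of this probe on the array marks it as cross-hybridising, so part of its signal may come from another transcript.

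**Figure D2:**
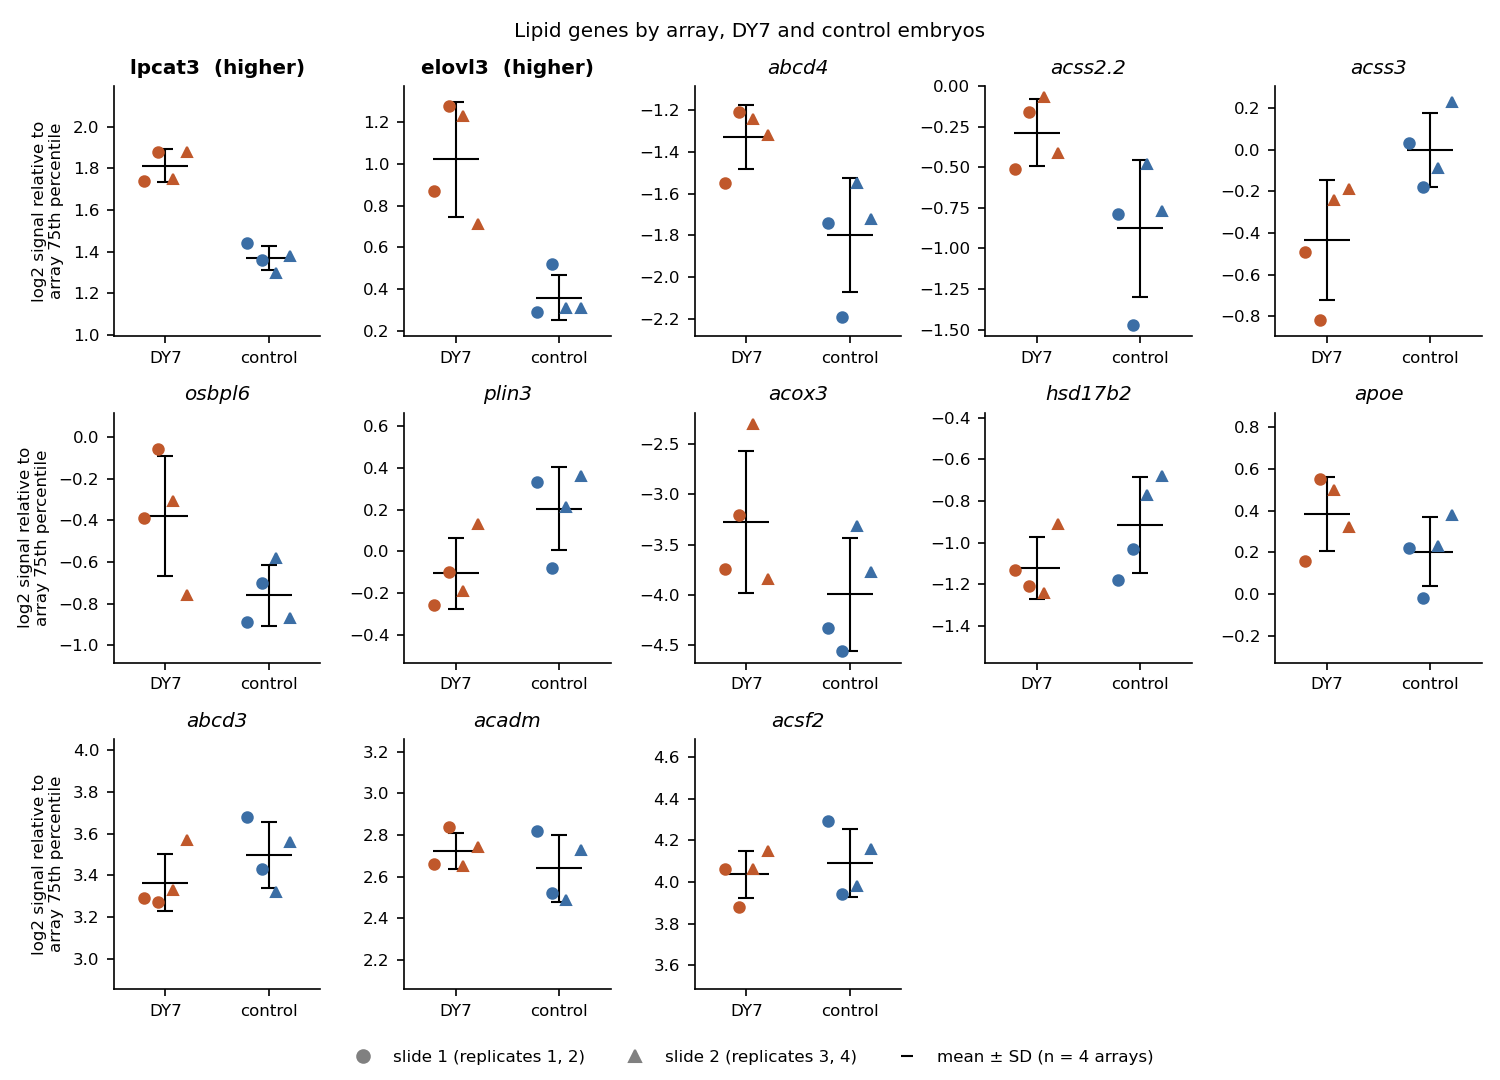
Log2 signal relative to the array's 75th percentile (vertical axis) for the 13 genes named by rule, with DY7 on the left and control on the right. Points are single arrays, circles on slide 1 and triangles on slide 2, and bars are the mean ± SD of 4 arrays. For lpcat3 and elovl3 every DY7 array lies above every control array, and for acss3 every DY7 array lies below, with -0.19 on DY7 4 next to -0.18 on control 2.

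Neither call held in every setting. With each array scaled to its median, lpcat3 stood at 0.33 (adjusted p = 0.119), while elovl3 kept its call at 0.55. Without control 4 neither was called (adjusted p 0.0517 for lpcat3 and 0.0596 for elovl3). In that setting 4 of 25 members and 5309 of 20289 tested probes had an unadjusted p under 0.05. The call of elovl3 was also lost without DY7 2, DY7 3 or control 1. The sample titles number the arrays but state no pairing. With the replicate number taken as a block, 3 members rose and 1 fell, against 16% and 9.25% of all tested probes (25.3% in either direction).

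**Figure D3:**
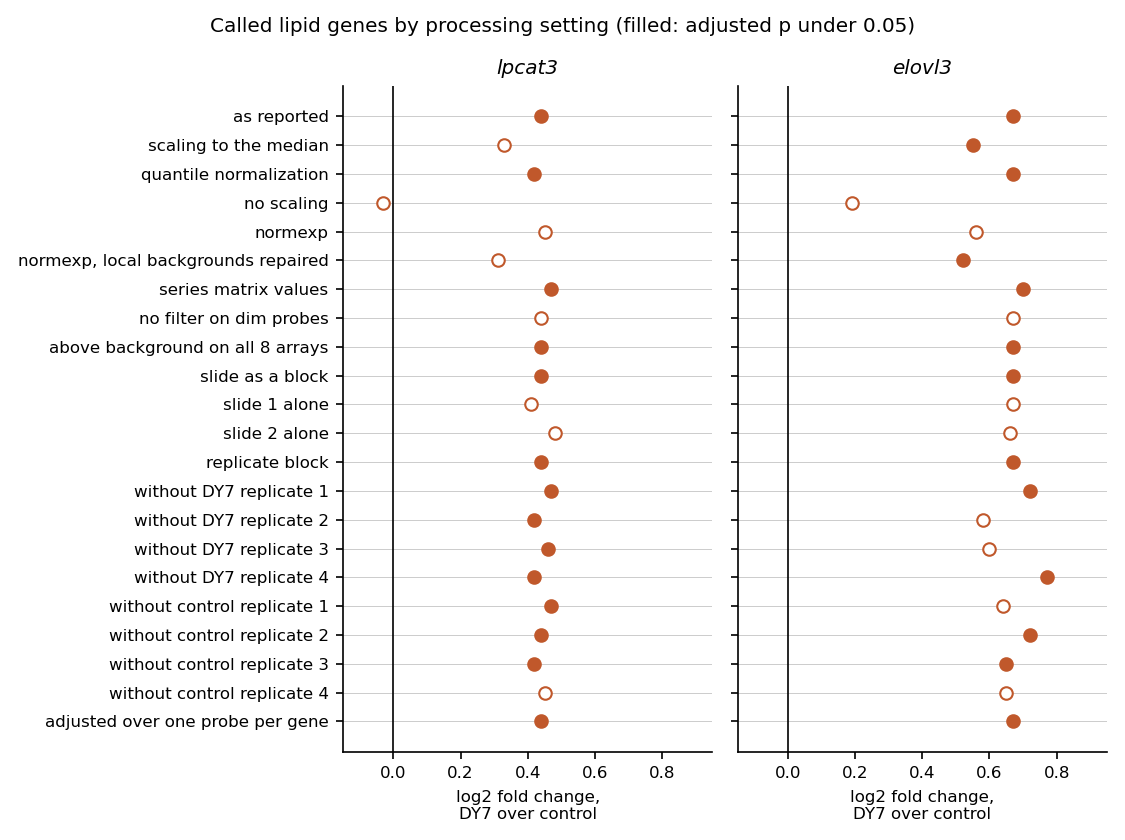
Log2 fold change (horizontal axis) of the 2 called genes under each processing setting (rows); filled points have an adjusted p under 0.05. Apart from the setting without scaling, where lpcat3 stood at -0.03, all points lie above 0.

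Genes that activate fatty acids and acetate showed no call among 5 measured, and their values ran in both directions. Cytosolic acetyl-CoA synthetase, read as acss2.2, stood at -0.51, -0.16, -0.07 and -0.41 on the DY7 arrays, against -0.79, -1.47, -0.48 and -0.77 on the control arrays. Control 2 was the lowest by far, and control 3 lay within the DY7 values. At 0.59 ± 0.20 its log2 fold change had an adjusted p of 0.0782 in limma, and its 95% interval was 0.14 to 1.05. It was 0.39 without control 2 and 0.73 without control 3, where it was called (adjusted p = 0.0471), as it was with the deposited log2 values (adjusted p = 0.0422).

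The mitochondrial enzyme acss3, which prefers propionate, gave the lowest log2 fold change of all members. Its signal was -0.49, -0.82, -0.24 and -0.19 on the DY7 arrays, against 0.03, -0.18, -0.09 and 0.23 on the control arrays. The DY7 arrays lay below the controls without overlap, although the closest values, on DY7 4 and control 2, were nearly equal. This gave a log2 fold change of -0.43 ± 0.16 with a limma adjusted p of 0.0903. With the replicate number as a block its standard error was 0.10, the adjusted p was 0.0328, and acss3 was called lower.

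The other activating enzymes overlapped widely between the groups. The other acetate enzyme, mitochondrial acss1, varied more among DY7 arrays (-2.75, -1.81, -1.77 and -2.65) than among control arrays (-2.44, -2.35, -1.90 and -2.49). Its log2 fold change was 0.05 (95% interval -0.51 to 0.61). The medium-chain synthetase acsm3 averaged -0.55 ± 0.31 in DY7 and -0.51 ± 0.21 in controls (SD, n = 4 each). For acsf2, a mitochondrial medium-chain synthetase, the means were 4.04 ± 0.12 in DY7 and 4.09 ± 0.16 in controls, and the 95% interval of the log2 fold change was -0.31 to 0.20.

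Enzymes of acyl-CoA oxidation gave no call either among 5 measured, with a median log2 fold change of 0.08. The medium-chain dehydrogenase acadm averaged 2.72 ± 0.09 in DY7 and 2.64 ± 0.16 in controls, with a 95% interval of -0.16 to 0.32. Long-chain acadl averaged 2.34 ± 0.15 in DY7 and 2.54 ± 0.20 in controls, with an interval of -0.48 to 0.09. Under the reported scaling both intervals leave out a change of 1.5-fold in either direction. So did those of acad8, the isobutyryl-CoA dehydrogenase of valine breakdown (log2 fold change 0.08, interval -0.20 to 0.36), and acad11 on a cross-hybridising probe (-0.08, interval -0.37 to 0.21). These intervals carry no allowance for the choice of scaling. Without scaling the log2 fold changes were -0.39 for acadm, -0.67 for acadl, -0.39 for acad8 and -0.55 for acad11. The median of all tested probes was then -0.42.

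The peroxisomal oxidase acox3, which acts on branched chains in mammals, was read near background by a cross-hybridising probe. Its signal was -3.74, -3.21, -2.30 and -3.84 on the DY7 arrays, against -4.33, -4.56, -3.31 and -3.77 on the control arrays, of which 3 were above background. Values were low throughout, DY7 3 stood highest, and DY7 1 and DY7 4 lay within the controls. With 1 control array not above background, acox3 passed the filter through DY7, where its values were higher. The log2 fold change was 0.72 ± 0.37 and was not called (adjusted p = 0.198). It was 0.40 without DY7 3, 0.32 with the repaired background correction and -0.03 with normexp.

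Besides elovl3, 3 genes of carboxylation, elongation and desaturation were measured. The desaturase family member fads6, whose substrate is not established, stood at 0.71, 1.73, 1.43 and 0.86 on the DY7 arrays, against 0.47, 0.76, 0.96 and 0.52 on the control arrays. In both groups the arrays numbered 2 and 3 were the highest. Its log2 fold change was 0.50 ± 0.23 (adjusted p = 0.151). With the replicate number as a block the standard error was 0.14 and fads6 was called higher (adjusted p = 0.0458). Without DY7 2 it stood at 0.32 (adjusted p = 0.337).

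Acetyl-CoA carboxylase, acaca, makes the malonyl-CoA for fatty acid synthesis and elongation. It stood at -2.94, -3.34, -2.94 and -2.63 on the DY7 arrays, against -3.00, -1.65, -2.76 and -3.05 on the control arrays, of which 3 were above background. Control 2 alone lay far above the rest, and the log2 fold change was -0.35 ± 0.30 with all arrays and -0.03 without control 2. The elongase elovl4, which makes very long chains in retina and skin, averaged 0.47 ± 0.08 in DY7 and 0.58 ± 0.18 in controls on a cross-hybridising probe (log2 fold change -0.11, interval -0.36 to 0.14).

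The second lysophospholipid acyltransferase measured, lpcat1, makes the saturated phosphatidylcholine of lung surfactant in mammals. It averaged -0.39 ± 0.12 in DY7 and -0.38 ± 0.20 in controls (log2 fold change -0.01, interval -0.29 to 0.26). Each called gene was paired with the member whose symbol begins with the same letters, which need not mean a common protein family. A difference between 2 genes on the same array does not depend on how arrays are scaled, although its absolute size depends on the probes. The log2 ratio of lpcat3 to lpcat1 was 2.10, 2.28, 2.01 and 2.43 on the DY7 arrays, against 1.68, 2.00, 1.5 and 1.82 on the control arrays. It was higher by 0.46 on average, and the closest values of the groups, 2.01 and 2.00, were nearly equal. The log2 ratio of elovl3 to elovl4 was 0.43, 0.90, 0.75 and 0.14 on the DY7 arrays, against -0.42, 0.21, -0.36 and -0.32 on the control arrays. It was higher by 0.78 on average, but DY7 4 lay below control 2. No test was made of these ratios, since the pairs followed from the calls.

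**Figure D4:**
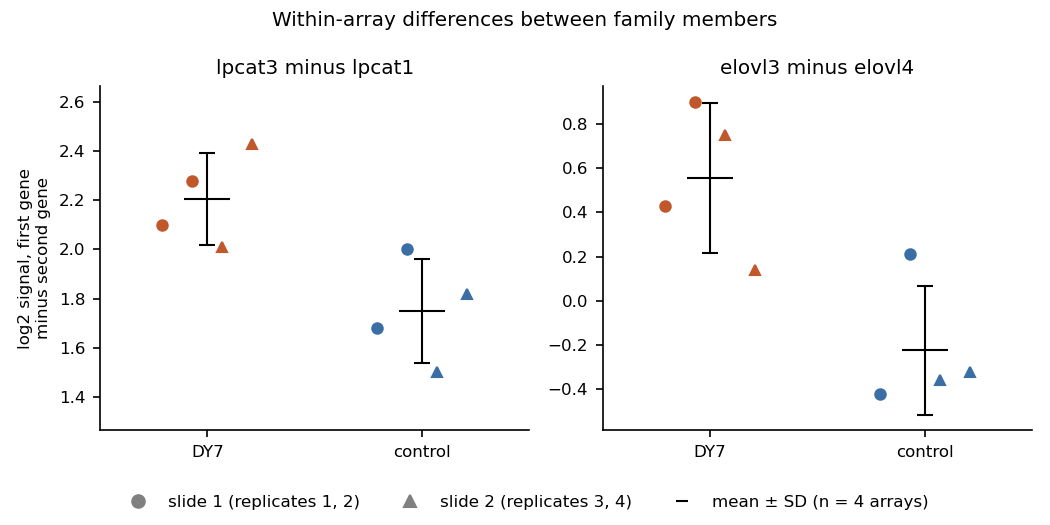
Log2 signal of a called gene minus that of the member whose symbol begins with the same letters, on the same array (vertical axis). DY7 is on the left and control on the right. Points are arrays and bars the mean ± SD of 4; the ratio of lpcat3 to lpcat1 does not overlap between the groups, whereas that of elovl3 to elovl4 does.

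Among the 4 transporters and oxysterol-binding proteins described here none was called, and 2 of them, abcd4 and osbpl6, were higher at an unadjusted p under 0.05, as were 20.7% of all tested probes. The peroxisomal transporter abcd3, which carries branched chains and bile acid precursors, stood at 3.29, 3.27, 3.33 and 3.57 on the DY7 arrays, against 3.68, 3.43, 3.32 and 3.56 on the control arrays. These groups overlapped, with a log2 fold change of -0.13 (interval -0.39 to 0.13).

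The lysosomal transporter abcd4 stood at -1.55, -1.21, -1.24 and -1.32 on the DY7 arrays, against -1.74, -2.19, -1.55 and -1.72 on the control arrays. DY7 1 met control 3, and control 2 was lowest. Its log2 fold change was 0.47 ± 0.15 (adjusted p = 0.0638). It was called with quantile normalization, with the deposited log2 values, with probes above background on all 8 arrays, and without control 3.

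Oxysterol-binding proteins move sterols and phosphoinositides between membranes, and 2 of them were measured. The signal of osbpl6 was -0.39, -0.06, -0.31 and -0.76 on the DY7 arrays, against -0.89, -0.70, -0.58 and -0.87 on the control arrays. Only DY7 4 fell within the control values, and the log2 fold change of 0.38 ± 0.15 was not called (adjusted p = 0.115). Without DY7 4 it was 0.51 with an adjusted p of 0.0381. For osbpl10 the means were -2.29 ± 0.18 in DY7 and -2.06 ± 0.25 in controls, with a log2 fold change of -0.23 ± 0.15. It was called lower with quantile normalization (-0.35, adjusted p = 0.0465) and with the deposited log2 values (-0.33, adjusted p = 0.0310), and stood at 0.07 with the repaired background correction.

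The remaining roles had 1 or 2 members each. The droplet coat protein plin3 stood at -0.26, -0.10, -0.19 and 0.13 on the DY7 arrays, against 0.33, -0.08, 0.21 and 0.36 on the control arrays. Control 2 lay within the DY7 values and the other controls above them, and the log2 fold change was -0.31 ± 0.13 (adjusted p = 0.131). It was -0.41 without control 2, with an adjusted p of 0.0485.

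The apolipoprotein gene apoe, whose product carries cholesterol and binds lipoprotein receptors, averaged 0.38 ± 0.18 in DY7 and 0.20 ± 0.16 in controls on a cross-hybridising probe (log2 fold change 0.18, interval -0.10 to 0.46). The steroid dehydrogenase hsd17b2, which inactivates oestrogens and androgens, averaged -1.12 ± 0.15 in DY7 and -0.91 ± 0.23 in controls (adjusted p = 0.306). Its relative hsdl1, regarded as catalytically inactive, averaged -3.17 ± 0.16 in DY7 and -3.34 ± 0.62 in controls, where control 2 stood at -4.24 and the other 3 between -3.21 and -2.81. The G-patch gene gpatch2 averaged -1.12 ± 0.30 in DY7 and -1.42 ± 0.32 in controls. None of these 4 genes was called.

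The arrays of a group were not equally alike in these genes. Several members with positive fold changes were highest on DY7 2 and DY7 3, among them elovl3, fads6, acss2.2 and acss1, whereas lpcat3 differed little among the DY7 arrays. Control 2, on which 51.6% of probes were above background, stood apart from the other controls in acaca on the high side and in abcd4, acss2.2 and hsdl1 on the low side. The part of array quality in these values was not tested.

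**Figure D5:**
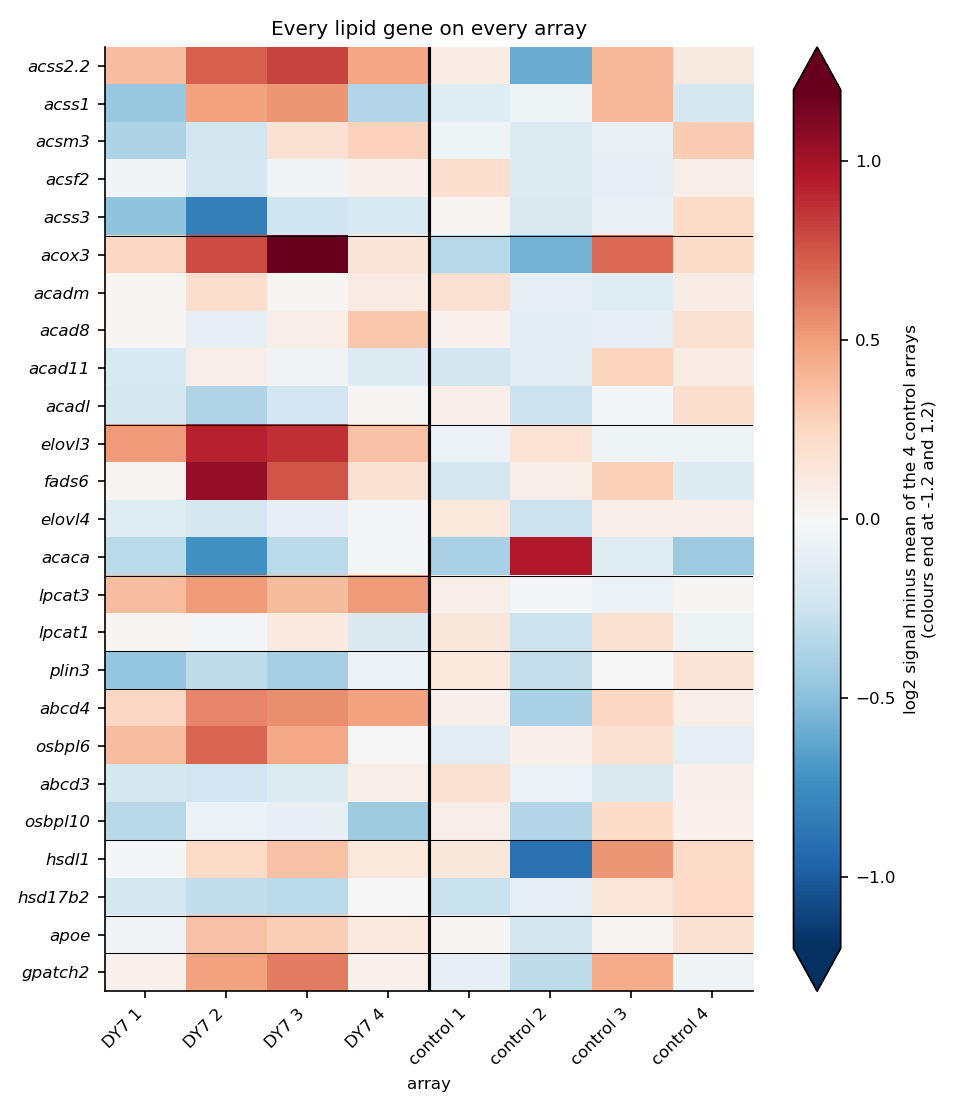
Log2 signal of each gene (rows, grouped by role) on each array (columns, DY7 left of control) minus the mean of the 4 control arrays, so that red is above and blue below that mean. The rows of lpcat3 and elovl3 are above that mean on all 4 DY7 arrays. So are rows of uncalled genes such as abcd4, acss2.2 and acox3. Control 2 stands out in acaca, acss2.2 and hsdl1.

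The filter left out 11 genes with a matching symbol. The genes just inside it were acox3, acaca and hsdl1, each above background on 4 of 4 DY7 arrays and 3 of 4 control arrays. Just outside were the desaturase fads1 and the apolipoprotein apof, on 3 of 4 arrays in both groups, the endothelial lipase lipg and the corticosteroid dehydrogenase hsd11b2, on 2 DY7 and 3 control arrays, and acoxl, on 3 DY7 and 2 control arrays. The signal of fads1 was -3.98, -3.23, -2.82 and -3.88 on the DY7 arrays, against -4.32, -4.73, -3.28 and -4.01 on the control arrays. That of apof lay between -3.45 and -3.07 on the DY7 arrays, whereas control 2 read -0.81 and the other controls -3.91 to -3.20. For gpat2, hsd17b1 and hsd17b14 no array was above background, and dgat2l6, lpcat4 and pla2g4f were above it on at most 2 arrays of a group. These genes were not tested.

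Other lipid genes, none of them a member, were read from lists of the neighbouring pathways. The counts for these small lists stand beside 14.1% of all tested probes called, 9.06% higher and 5.07% lower. Of 8 measured genes of fatty acid oxidation 1 rose, the carnitine transferase cpt1a (0.72 ± 0.19), and 2 fell, the uncoupling protein gene ucp3 (-1.94 ± 0.25) and phyh. The peroxisomal enzyme phyh starts the breakdown of phytanic acid, and its cross-hybridising probe read 0.16, 0.48, 0.66 and 0.47 on the DY7 arrays, against 1.26, 1.00, 1.04 and 1.2 on the control arrays. The groups did not overlap, and the log2 fold change was -0.68 ± 0.13 (adjusted p = 0.0117); phyh kept its call whichever array was left out (-0.75 to -0.59). It was not called with either form of normexp, without the filter on dim probes, or within either slide.

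Of 2 fatty acid synthesis genes the malic enzyme me1, a source of NADPH, rose (0.78 ± 0.14), and of 3 cholesterol synthesis genes sqle (1.28 ± 0.15) and sc5d (0.96 ± 0.13) did. Of 11 genes of lipoprotein and sterol transport 2 rose, apob (0.55 ± 0.13) and stard4 (0.76 ± 0.19), while ldlr (0.20, adjusted p = 0.171) and lpl (-0.32, adjusted p = 0.214) were not called. In fatty acid uptake and binding 1 of 4 rose, fabp6 (1.2 ± 0.17), and 1 fell, cd36l (-2.40 ± 0.18). Of 6 lipid regulators ppargc1a (0.65 ± 0.18) and ppara (0.96 ± 0.28) rose. The calls of cpt1a, apob, stard4, ppargc1a and ppara were lost without DY7 2, without DY7 3 and without control 4. Each was also lost without at least 1 other array, with an adjusted p of up to 0.124 for ppara. All of them were lost without scaling, with normexp, without the filter on dim probes and within either slide alone. With the repaired background correction all but stard4 lost their calls, and with scaling to the median apob and ppargc1a lost their calls. Those of me1, sqle, sc5d, fabp6, ucp3 and cd36l were kept whichever array was left out, but none of the 6 was called within either slide alone, all but cd36l were lost with normexp, and me1, sqle, sc5d and fabp6 also without scaling. With slide as a block ppargc1a (adjusted p = 0.0578) and ppara (adjusted p = 0.0587) were not called. The probes of sqle, stard4 and ppara were above background on 3 of 4 control arrays and that of ucp3 on 3 of 4 DY7 arrays, so these genes passed the filter through the group in which they were higher. With the repaired background correction their log2 fold changes were 0.67 for sqle, 0.44 for stard4, 0.50 for ppara and -0.60 for ucp3. None of 8 sphingolipid genes, 6 peroxisome biogenesis genes and 3 phospholipid synthesis genes was called, with medians of 0, 0.21 and -0.02. Of the glycerolipid and droplet list 2 genes were on the array, and neither passed the filter. Several of these genes were known from earlier results of these data when the lists were written, so the counts are a description.

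Markers of liver, intestine, exocrine pancreas, skeletal muscle and red cells were read beside these values, again against 14.1% of all tested probes called. Of 9 measured liver genes 1 was called, serpina1 (higher, 0.75 ± 0.12), and the mean signal of the list ran from 0.56 to 0.71 on the DY7 arrays and from 0.58 to 0.65 on the control arrays. Of 2 intestine genes fabp6 was called higher, and the list mean ran from 5.02 to 5.54 in DY7 and from 4.31 to 4.96 in controls. Neither of 2 pancreas genes was called. Of 3 skeletal muscle genes tnnt1 was called lower (-1 ± 0.11), with list means of 1.3 to 1.54 in DY7 and 1.75 to 2.05 in controls. Of 2 red cell genes ca1 was called lower (-2.10 ± 0.37). Its probe was above background on 2 of 4 DY7 arrays and 4 of 4 control arrays. It thus passed the filter through the group in which it was higher. The other, slc4a1, stood at 0.41 ± 0.14 and was not called (limma adjusted p = 0.0703). The mean of this pair ran from -1.71 to -0.65 in DY7 and from -0.47 to -0.01 in controls. No measured marker was below background on all arrays of a group. The part of tissue makeup in the lipid gene values was not tested.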

How the data were processed

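Total RNA was labelled with Cy3 and measured on 8 single-colour Agilent arrays, 4 per group, on 2 slides of 4 that each held both groups. The deposited scanner files hold processed intensity values from Agilent Feature Extraction, which records background and spatial trend fits, per the file headers (version 10.7.3.1 on slide 1, 10.7.1.1 on slide 2). The authors' deposited series matrix holds log2 values, correlated at 0.986 or more with the log2 intensity of the same array; how it was scaled between arrays was not stated. Its column medians as deposited were 5.19, 5.17, 5.18 and 5.19 on DY7 arrays 1 to 4 and 5.10, 5.27, 5.16 and 5.12 on control arrays 1 to 4. The deposited flags, coded 0 or 1 per the file headers, marked outliers and spots well above background.

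Control spots (1417 of 45220) and outlier spots were left out, no spot was saturated, and spots of a probe were averaged in log2. Values are log2 intensity minus the array's 75th percentile over 32899 probes. Of 20329 probes above background on all 4 arrays of a group, 40 lacked a value on an array, leaving 20289. Accessions named 5891 probes (17.9%) through RefSeq (UCB_Xtro_10.0); the arrays were designed on JGI 4.1, so no coordinates are given. limma 3.58.1 in R 4.3.3 tested DY7 against control, two-sided, with Benjamini-Hochberg adjustment over all tested probes.

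A gene that matched the symbol rule and passed the filter is not reported here and is left out of the members' counts. Members and lists were chosen with earlier results of these data known. The naming rule took called members, the smallest p of each role without a call, the 3 brightest, the next 4 by p, and up to 3 called genes per other list (13 members and 12 others); the other 12 members are described because every member is accounted for. In simulated data over 20289 probes, with independent noise and a small share of probes changed, 26.9% of 1.5-fold, 62.7% of 2-fold and 93.9% of 3-fold changes were recovered. In the real data 14.1% of tested probes were called. The adjusted p depends on the share of changed probes, so these rates do not give the power of the real comparison. Deviations from group means correlated at 0.306, 0.107, 0.455 and 0.449 between DY7 and control arrays of the same number, 1 to 4. All were over 0.1, and on that ground the numbers were used as a block. For DY7 2 a control of another number correlated more highly (0.305), so a pairing of the samples is not established. Normexp used median spot signals (offset 50); its repaired form set 134 extreme local backgrounds to the array median.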

Additional observations from a re-analysis of the deposited data

Results flagged for a closer look

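In 50 groups of 4 arrays (25 genes, 2 groups each) the gap between the highest or lowest array and its nearest neighbour was set against the range of the group, with Dixon's 95% critical value as the limit. It was passed in 1 group. In elovl3, control 2 read 0.52, whereas the other controls read 0.29 to 0.31, a gap of 0.914 of the range. Chance marks about 1 group in 20 by this criterion. Without control 2 the log2 fold change of elovl3 was 0.72 and it was called.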

How the results depend on the processing

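Of 25 members, 2 were called higher and 0 lower, and 21 alternatives were run. With scaling to the median 1 was higher and the members' median was -0.07, against -0.06 for all probes. Without scaling 0 were higher, the members' median was -0.42, as for all probes, 719 probes were called, and lpcat3 (-0.03) changed sign. An unadjusted p under 0.05 was then found for 6 of 25 members and 4674 of 20289 probes. Called probes were higher in 64.1% in the reported setting, 43.8% with scaling to the median, 54.3% with quantile normalization and 4.73% without scaling. With quantile normalization 3 members were higher and 1 lower, and with the deposited log2 values 4 and 1, where 17.9% and 20.2% of all tested probes were called. Normexp left 13 probes (1455 at an unadjusted p under 0.05) and 0 members (3 unadjusted). After repair of local backgrounds it left 1506 probes and 1 member, elovl3. Without the filter on dim probes 562 of 32832 probes (6488 unadjusted) and 0 members (6 unadjusted) were called. The cause was not tested. Within slide 1, 2 arrays against 2, 6 probes (3450 unadjusted) and 0 members (5 unadjusted) were called. Within slide 2 it was 0 probes (3308 unadjusted) and 0 members (2 unadjusted). Under the replicate block 5124 probes were called, with 3 members higher and 1 lower, which changed the calls of fads6 and acss3 and of no other member. Adjusted over 1 probe per gene, 498 of 3436 genes and 2 members were called. Leaving out 1 array gave 1091 to 3323 probes, 0 to 4 members higher, 0 to 1 lower and a members' median of -0.06 to 0.1. The count of members higher was 1 without DY7 2, DY7 3 or control 1, 0 without control 4 and 4 without control 3; the 1 lower, plin3, came without control 2. Of the uncalled members, 7 were called in at least 1 alternative. Of all members, 17 changed sign in at least 1 alternative, 12 of them in one other than no scaling. A second probe per gene could not be tried because each gene had 1 probe. Signals near background limit acox3, acaca and hsdl1.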
